A study of Mus musculus with 8 samples.

Results

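Lysosomal cathepsins and their secreted inhibitor cystatin C were followed through conventional dendritic cells sorted from mouse tumours. The set was chosen by gene name and function, with earlier results of these data known: the 7 cysteine cathepsin genes Ctsb, Ctsc, Ctsh, Ctsk, Ctsl, Ctss and Ctsz, the 2 aspartic cathepsin genes Ctsd and Ctse, and Cst3, which encodes cystatin C. These are 10 of the 24369 gene symbols with read counts, and all 10 were among the 11394 genes that passed the filter on low counts. Ctse and Ctsk passed only through the libraries in which they were high: Ctse reached 10 counts in 4 of the 8 libraries and Ctsk in 5.

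All cells came from MC38-EGFP tumours in WT mice. The tumour cells, of the murine colon carcinoma line MC38, make enhanced green fluorescent protein (EGFP), which marks dendritic cells that hold tumour-derived protein. Flow cytometry gave 4 groups of 2 libraries each: EGFP+ cDC1, EGFP- cDC1, EGFP+ cDC2 and EGFP- cDC2. cDC1 excel at cross-presentation, the display of engulfed antigen on class I molecules to CD8 T cells, whereas cDC2 chiefly stimulate CD4 T cells. The labels give no strain, age or drug for these libraries, though the series title concerns sitagliptin, and they do not say whether replicates came from separate mice, so p-values here measure only how far these libraries scatter, and that scatter may be technical.

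Cathepsins are made as inactive precursors, sorted to endosomes and lysosomes, and activated there at acid pH. In antigen-presenting cells they cut ingested protein into peptides for MHC class II, and cathepsin S (Ctss) removes the last part of the invariant chain that blocks the class II groove. Strong proteolysis can also destroy peptides before they are presented, and dendritic cells are known for milder lysosomal proteolysis than macrophages. Cystatin C binds the active site of cysteine cathepsins and does not inhibit aspartic ones.

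Promoters of the 7 members found in the RefSeq table for GRCm38.p6 (Ctsc, Ctsd, Ctsk, Ctsl, Ctss, Ctsz and Cst3) were searched on both strands, each over 250 bases before and 50 after the RefSeq start. The motifs were CACGTG, the core bound by lysosomal gene regulators of the TFEB family; GAAA repeated after 2 bases of any kind, a core bound by interferon regulatory factors; and GGGCGG, the box bound by Sp1. CACGTG was found in 2 of the 7 promoters, beginning 245 and 98 bases before the start of Ctsd and 236 bases before that of Ctsl, against 7.15% of all 32851 promoters in the table. The window for Ctsl (chr13:64370471-64370770) lies wholly inside the Ctsl gene as GENCODE M21 places it (chr13:64359337-64370890, minus strand). Its RefSeq start is thus downstream of the GENCODE start, and its CACGTG falls within the annotated gene. The GAAA repeat was found in 1 of the 7, 21 bases before the start of Ctss, against 3.44% of all promoters. GGGCGG was found in 5 of the 7 (Ctsc, Ctsd, Ctss, Ctsz and Cst3), against 35.7% of all promoters. No motif shared a base with another in these promoters apart from a pair of GGGCGG boxes in Ctsz that overlap by 1 base. A match is a description of the letters and not a measured binding site. The 4 promoters shown belong to the inhibitor, to the cathepsin with most counts, and to the pair that hold CACGTG. Each is written 5′ to 3′ on the gene's own strand, and capitals mark the motifs.
Cst3 (chr2:148875463-148875762, minus strand): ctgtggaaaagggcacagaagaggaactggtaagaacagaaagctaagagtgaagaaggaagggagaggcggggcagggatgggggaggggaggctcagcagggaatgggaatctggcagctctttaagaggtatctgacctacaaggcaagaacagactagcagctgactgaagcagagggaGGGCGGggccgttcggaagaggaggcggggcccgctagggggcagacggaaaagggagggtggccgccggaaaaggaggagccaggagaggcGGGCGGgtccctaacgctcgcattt
Ctss (chr3:95526536-95526835, plus strand): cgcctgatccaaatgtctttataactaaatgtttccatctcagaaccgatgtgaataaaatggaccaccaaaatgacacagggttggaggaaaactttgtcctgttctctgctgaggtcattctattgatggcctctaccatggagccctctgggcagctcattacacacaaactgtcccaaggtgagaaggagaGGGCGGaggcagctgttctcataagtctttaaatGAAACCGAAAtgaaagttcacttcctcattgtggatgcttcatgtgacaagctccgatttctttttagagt
Ctsl (chr13:64370471-64370770, minus strand): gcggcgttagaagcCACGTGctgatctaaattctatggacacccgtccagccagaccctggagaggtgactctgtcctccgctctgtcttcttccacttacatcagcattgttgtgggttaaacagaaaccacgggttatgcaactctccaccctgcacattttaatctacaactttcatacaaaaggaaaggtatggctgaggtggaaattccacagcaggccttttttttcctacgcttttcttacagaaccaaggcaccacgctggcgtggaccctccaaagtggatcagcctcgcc
Ctsd (chr7:142387778-142388077, minus strand): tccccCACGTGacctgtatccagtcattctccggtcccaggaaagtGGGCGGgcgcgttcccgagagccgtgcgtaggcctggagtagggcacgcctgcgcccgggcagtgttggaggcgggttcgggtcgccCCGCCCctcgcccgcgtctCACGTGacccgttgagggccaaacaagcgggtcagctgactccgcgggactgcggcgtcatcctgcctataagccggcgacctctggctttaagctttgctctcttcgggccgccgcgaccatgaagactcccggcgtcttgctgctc

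The genes lie on 7 chromosomes of GRCm38 (GENCODE M21). Ctsk (chr3:95499256-95509362) and Ctss (chr3:95526786-95556403) are direct neighbours on the plus strand, 17423 bases apart with 0 annotated genes between them. Ctsd (chr7:142375911-142388038, minus strand) and Ctsc (chr7:88278085-88310888, plus strand) share a chromosome without being neighbours, as do Cst3 (chr2:148871722-148875692) and Ctsz (chr2:174427493-174439039), both on the minus strand. Ctsb lies at chr14:63122462-63145923, Ctsh at chr9:90054152-90076089, Ctsl at chr13:64359337-64370890 and Ctse at chr1:131638306-131675505. Ctsb shares 774 exonic bases with Fdft1 on the opposite strand, and Ctsl shares 1742 with an antisense transcript and 395 with a pseudogene, while Ctsd shares 808 with a same-strand model. The use of strand in counting is not given in the sources used here, so reads in those stretches could belong to either gene.

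Library totals ranged from 17869441 to 22195681 counts, and the ribosomal RNA precursor Rn45s took 19.4% to 35.6% of them. The EGFP+ cDC1 libraries had counts for 8553 and 8208 genes, against 9602 to 11922 in the other 6. The Pearson correlation of log2(CPM + 1) between replicates was 0.629 in EGFP+ cDC1, against 0.850 in EGFP- cDC1, 0.875 in EGFP+ cDC2 and 0.898 in EGFP- cDC2, so the EGFP+ cDC1 pair stands apart. Marker genes were read against the labels. The 10 cDC1 markers summed to 3420 to 7668 CPM in cDC1 libraries, against 379 to 923 CPM in cDC2 libraries. The 8 cDC2 markers summed to 32.9 to 396 CPM in cDC1 libraries and 921 to 964 CPM in cDC2 libraries. The cDC2 libraries also carried 26097 to 48659 CPM over 16 macrophage and monocyte markers, none of them at 0, and 55.3 to 95.3 CPM over 6 markers shared by conventional dendritic cells, with Zbtb46, Dpp4 or Flt3 at 0 in 3 of the 4 libraries. In cDC1 libraries the same macrophage list summed to 477 to 12049 CPM, with Mertk at 0 in all 4. In the text below cDC2 therefore names the sorted gate. The cell type field of all 8 samples reads colon cancer, whereas 8 epithelial markers summed to 0.38 to 49.3 CPM, with 4 to 7 of them at 0 in each library.

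Levels are given as CPM, raw counts scaled by library total and TMM factor, a floor of 3 counts corresponding to 0.131 to 0.211 CPM. Fold changes are log2 with their standard error from edgeR's quasi-likelihood test, and adjusted p-values are Benjamini-Hochberg over all 11394 genes, with 0.05 as the threshold for a call.

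Cystatin C transcripts marked the cDC1 libraries. Cst3 stood at 12364 and 21102 CPM in EGFP+ cDC1 and at 23490 and 31774 CPM in EGFP- cDC1. In the cDC2 gate it stood at 1776 and 1065 CPM in EGFP+ cells and at 1112 and 1176 CPM in EGFP- cells. Every cDC1 library was far above every cDC2 library, and the lowest of the cDC1 values was in EGFP+ replicate 1.

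The cysteine endopeptidases Ctss, Ctsl and Ctsb were high in the cDC2 gate, each with its own pattern in cDC1. Ctss stood at 490 and 3835 CPM in EGFP+ cDC1, 1624 and 1028 CPM in EGFP- cDC1, 9307 and 3323 CPM in EGFP+ cDC2 and 7534 and 5966 CPM in EGFP- cDC2. One EGFP+ cDC1 library was thus the lowest of all and the other overlapped the cDC2 range. Ctsb, an endopeptidase that also trims dipeptides, stood at 403 and 754 CPM in EGFP+ cDC1 and at 363 and 375 CPM in EGFP- cDC1, against 3034 and 1875 CPM in EGFP+ cDC2 and 3140 and 2636 CPM in EGFP- cDC2. The Ctsb levels of the subsets did not overlap.

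Ctsl encodes cathepsin L, known for invariant chain breakdown in thymic cortical epithelium and abundant in macrophages. It stood at 1045 and 222 CPM in EGFP+ cDC1 and at 10.9 and 11.8 CPM in EGFP- cDC1. In cDC2 it stood at 2806 and 1668 CPM in EGFP+ cells and at 2504 and 1413 CPM in EGFP- cells. The EGFP- cDC1 pair was far below all others and agreed closely, and the EGFP+ cDC1 pair lay between it and the cDC2 range.

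Of the exopeptidases, Ctsc and Ctsh differed widely between the EGFP+ cDC1 replicates. Ctsc, the dipeptidyl peptidase that activates granule serine proteases, stood at 178 and 3234 CPM in EGFP+ cDC1, 378 and 729 CPM in EGFP- cDC1, 4155 and 1290 CPM in EGFP+ cDC2 and 7051 and 4445 CPM in EGFP- cDC2. Ctsh, an aminopeptidase, stood at 80.8 and 492 CPM in EGFP+ cDC1, 227 and 242 CPM in EGFP- cDC1, 545 and 233 CPM in EGFP+ cDC2 and 971 and 555 CPM in EGFP- cDC2. For both genes the EGFP+ cDC1 libraries spanned from below all other libraries into the cDC2 range. Ctsz, the carboxypeptidase cathepsin X, had the narrowest range, with 465 and 959 CPM in EGFP+ cDC1, 414 and 587 CPM in EGFP- cDC1, 1407 and 777 CPM in EGFP+ cDC2 and 1468 and 1297 CPM in EGFP- cDC2. Ctsk, the collagenase of osteoclasts, stood at 11.1 and 0 CPM in EGFP+ cDC1, 0 and 0 in EGFP- cDC1, 3.18 and 2.53 CPM in EGFP+ cDC2 and 5.34 and 10.6 CPM in EGFP- cDC2. It was at 0 counts in 3 of the 4 cDC1 libraries, while the remaining one was the highest of all 8.

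The aspartic enzymes differed in level and in pattern. Ctsd, the main aspartic protease of lysosomes, stood at 121 and 217 CPM in EGFP+ cDC1 and at 74.7 and 30.0 CPM in EGFP- cDC1, against 1889 and 898 CPM in EGFP+ cDC2 and 1342 and 1051 CPM in EGFP- cDC2. The subsets did not overlap for Ctsd, and within cDC1 both EGFP+ libraries were above both EGFP- libraries. Ctse, an endosomal aspartic protease of antigen-presenting cells and stomach, was low, and near the floor outside EGFP- cDC1 and 1 EGFP+ cDC1 library, with 0 and 2.46 CPM in EGFP+ cDC1, 6.92 and 4.94 CPM in EGFP- cDC1, 0 and 0.30 CPM in EGFP+ cDC2 and 0.32 and 0.71 CPM in EGFP- cDC2. Ctse was thus seen mainly in EGFP- cDC1, with 254 counts over the 2 libraries, and was called in none of the comparisons below.

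**Figure D1:**
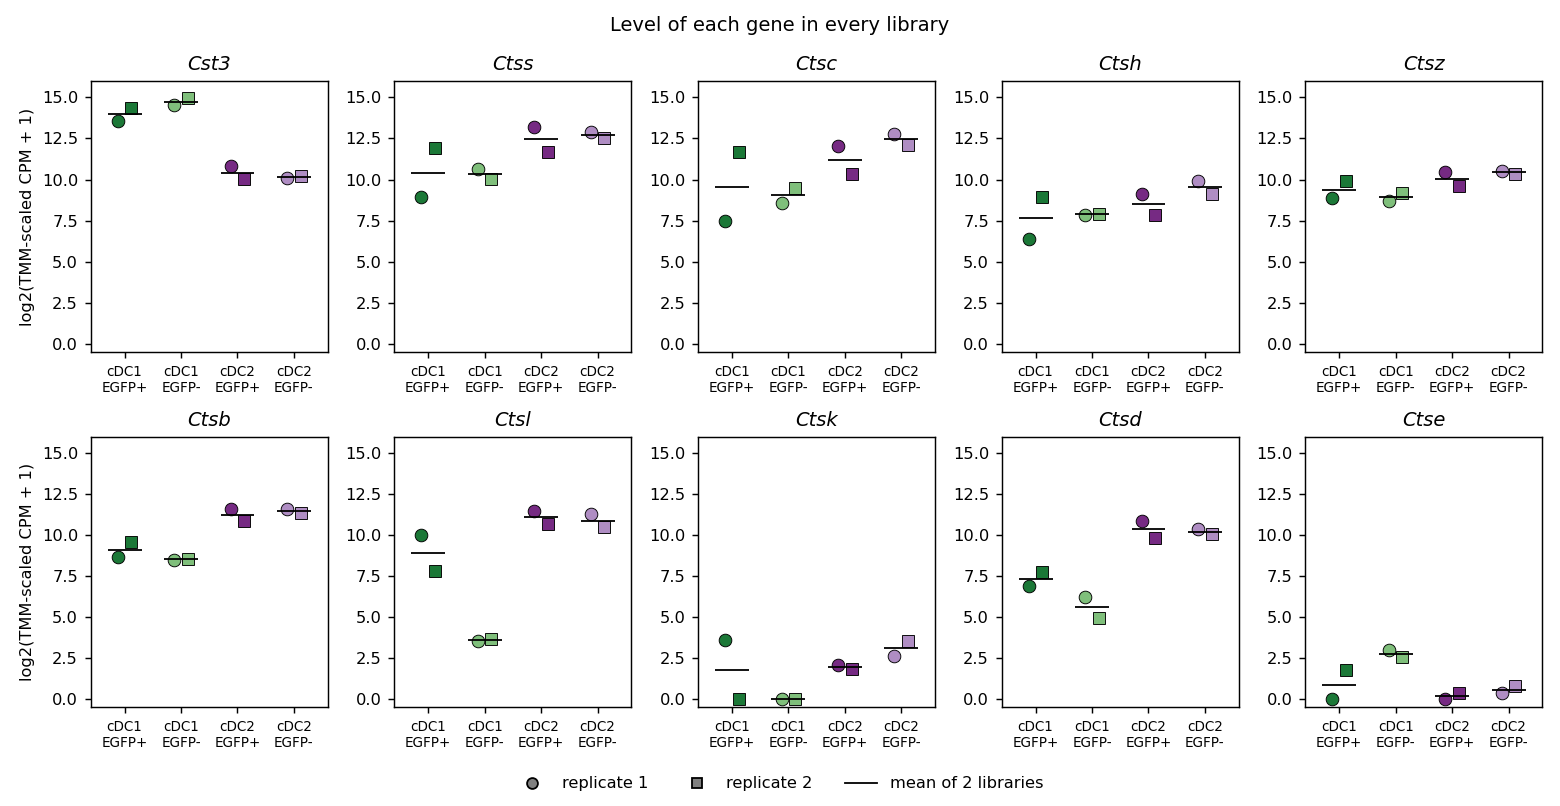
Level of each of the 10 genes in every library, as log2(CPM + 1) on the vertical axis, with 1 point per library in 4 groups of 2 libraries and the group mean as a bar. Cst3 is high in all 4 cDC1 libraries, Ctsb and Ctsd are low in all 4, and Ctsl is near 11 CPM in EGFP- cDC1 only.

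The first comparison asked which of these genes separate the subsets irrespective of EGFP, with 4 libraries a side. Of the 10 members 3 passed the threshold (background 1.32%, 150 of 11394 genes): Cst3 was higher in cDC1, and Ctsb and Ctsd were lower. All cDC1 libraries were above all cDC2 libraries for 1 member (Cst3, background 3.96%) and below them for 3 (Ctsb, Ctsd and Ctsl, background 8.56%). Cst3 averaged 22182 ± 7985 CPM in cDC1 and 1282 ± 332 CPM in cDC2 (SD, n = 4 each), a log2 fold change of 4.08 ± 0.37 (edgeR adjusted p = 0.0013). Ctsb averaged 474 ± 188 CPM in cDC1 and 2671 ± 574 CPM in cDC2 (SD, n = 4 each), a log2 fold change of −2.53 ± 0.33 (edgeR adjusted p = 0.0080). Ctsd averaged 111 ± 80.2 CPM in cDC1 and 1295 ± 437 CPM in cDC2 (SD, n = 4 each), a log2 fold change of −3.78 ± 0.50 (edgeR adjusted p = 0.0080). In bulk RNA, fewer cells of a type and less RNA per cell cannot be told apart. The 16 macrophage and monocyte markers moved the same way as Ctsb and Ctsd, all 4 cDC1 libraries having a lower sum (477 to 12049 CPM) than all 4 cDC2 libraries (26097 to 48659 CPM), and their part in the result was not tested.

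The other cathepsins did not pass in that comparison. Ctsl averaged 322 ± 492 CPM in cDC1 and 2098 ± 663 CPM in cDC2, without overlap (log2 fold change −4.62 ± 1.56, edgeR adjusted p = 0.271). The log2 fold change was −1.95 ± 0.60 for Ctss (edgeR adjusted p = 0.200), −1.04 ± 0.35 for Ctsz (edgeR adjusted p = 0.235), −2.03 ± 1.04 for Ctsc (edgeR adjusted p = 0.466) and −1.07 ± 0.56 for Ctsh (edgeR adjusted p = 0.457). Ctse and Ctsk were low and overlapped between the subsets. Their log2 fold changes were 3.25 ± 2.19 (edgeR adjusted p = 0.612) and −3.79 ± 4.99 (edgeR adjusted p = 0.841). Over all 10 genes the median log2 fold change was −1.99, against −0.28 over all genes tested. Without EGFP+ cDC1 replicate 2, the calls numbered 6, with Ctsc (−3.60, edgeR adjusted p = 0.0088), Ctss (−2.85, edgeR adjusted p = 0.0228) and Ctsh (−1.93, edgeR adjusted p = 0.0420) also lower in cDC1; the calls over all genes then numbered 277, against 150 with all libraries. Cst3, Ctsb and Ctsd were called under all 17 alternatives, with adjusted p-values up to 0.0064, 0.0444 and 0.0404.

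Among EGFP- cells, where replicates agreed better in cDC1, 4 members passed (background 0.36%, 41 genes), 1 higher and 3 lower in cDC1 (background 0.114% and 0.246%), and 8 had an unadjusted p under 0.05 (background 9.58%). The groups did not overlap for any member. Cst3 averaged 27632 ± 5857 CPM in EGFP- cDC1 and 1144 ± 45.3 CPM in EGFP- cDC2, a ratio of means of 24.2 (log2 fold change 4.59 ± 0.44, edgeR adjusted p = 0.0281). Of the cathepsins called, Ctsl showed the steepest difference, with 11.4 ± 0.64 CPM in EGFP- cDC1 and 1959 ± 771 CPM in EGFP- cDC2 (−7.43 ± 0.89, edgeR adjusted p = 0.0290). Ctsd averaged 52.4 ± 31.7 CPM in EGFP- cDC1 and 1197 ± 206 CPM in EGFP- cDC2 (−4.51 ± 0.64, edgeR adjusted p = 0.0467), and Ctsb 369 ± 8.09 CPM in EGFP- cDC1 and 2888 ± 357 CPM in EGFP- cDC2 (−2.97 ± 0.41, edgeR adjusted p = 0.0467). These means are over n = 2 libraries each. Ctsk, at 0 counts in both EGFP- cDC1 libraries, was at least 114-fold lower there than in EGFP- cDC2 when 3 counts over the group are taken as the floor, but did not pass (edgeR adjusted p = 0.475). In all, 2 members (Cst3 and Ctse) were higher in both EGFP- cDC1 libraries than in both EGFP- cDC2 libraries (background 21.9%) and 8 were lower (background 26.5%). Ctse did not pass (log2 fold change 3.50 ± 3.05, edgeR adjusted p = 0.823). Ctse and Ctsk are among these counts, and Ctsk is among the 8 with an unadjusted edgeR p under 0.05. Both passed the filter only through libraries in which they were high, so they lend the counts no support. The macrophage and monocyte markers summed to 2276 and 3480 CPM in EGFP- cDC1 and to 48659 and 39958 CPM in EGFP- cDC2, and C1qa alone stood at 2.2 and 1.1 CPM in EGFP- cDC1 against 2096 and 1718 CPM in EGFP- cDC2. When any 1 of the 4 EGFP- libraries was left out, no member passed, and the calls over all genes fell as well. A group then held a single library assumed to vary like the others. With the replicate number as a block, no member passed either, and without robust estimation 2 did. Under the 17 alternatives the log2 fold change of Cst3 in this comparison ran from 4.36 to 4.79.

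Among EGFP+ cells only Cst3 passed (1 of 10 members, background 0.228%, 26 genes). It averaged 16733 ± 6179 CPM in EGFP+ cDC1 and 1420 ± 503 CPM in EGFP+ cDC2 (SD, n = 2 each), a log2 fold change of 3.56 ± 0.42 (edgeR adjusted p = 0.0378). Ctsb, Ctsd and Ctsl were below the cDC2 range in both EGFP+ cDC1 libraries (3 members, background 33.2%) without passing: the log2 fold changes were −2.08 ± 0.40 (edgeR adjusted p = 0.0875), −3.04 ± 0.60 (edgeR adjusted p = 0.0955) and −1.82 ± 0.69 (edgeR adjusted p = 0.267). Ctss, Ctsc, Ctsh and Ctsz overlapped between the subsets in EGFP+ cells. The median log2 fold change over the members was −0.65, against −0.30 over all genes tested. The call for Cst3 was lost without EGFP- cDC1 replicate 1 or 2, EGFP+ cDC2 replicate 2, or EGFP- cDC2 replicate 1 or 2. Each of these fits left a group with a single library, and each also called fewer genes in all than the main fit. With all libraries of the compared groups kept, the Cst3 call was also lost in 3 fits. These were without robust estimation, with the compared libraries alone and with the replicate number as a block. Over all genes these 3 gave 12, 0 and 0 calls. Cst3 was called under 9 of the 17 alternatives. Under the 17 alternatives the log2 fold change of Cst3 in this comparison ran from 3.12 to 4.09. Without EGFP+ cDC1 replicate 1 there were 3 calls, adding Ctsb (edgeR adjusted p = 0.0464) and Ctsl (0.0124). Without EGFP+ cDC1 replicate 2 there were 5, adding Ctsb (0.0095), Ctsc (0.0340), Ctsd (0.0250) and Ctss (0.0188). EGFP+ cDC1 is then 1 library assumed to vary like the other groups, and the calls over all genes numbered 847 without replicate 1 and 1273 without replicate 2, against 26 with both, so the added calls lend these genes no support.

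**Figure D2:**
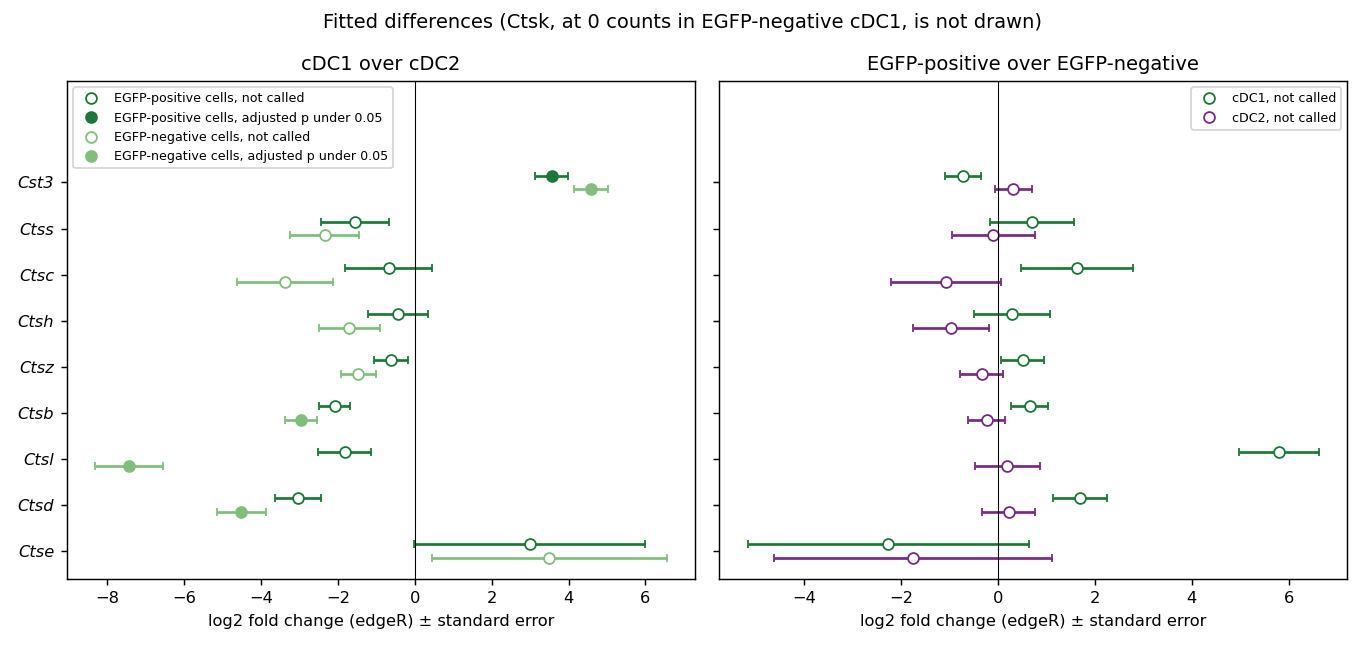
Fitted log2 fold changes (horizontal axis) with their standard errors for 9 genes, cDC1 over cDC2 on the left and EGFP-positive over EGFP-negative on the right, filled symbols marking an adjusted p under 0.05. Cst3 lies to the right of 0 for cDC1 over cDC2 in both fractions, and Ctsl shows the widest gap between cDC1 and cDC2 on the EGFP side (5.80 in cDC1 and 0.19 in cDC2).

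The second question was whether cells that hold tumour-derived EGFP differ in these transcripts. Over both subsets, edgeR called 0 of 10 members and 0 of 11394 genes (background 0%), with 0 members at an unadjusted p under 0.05 (5.22% of all genes). DESeq2 called 0 members and 184 genes, and voom with quality weights 0 members and 4 genes. The member log2 fold changes ran from −2.02 ± 2.09 for Ctse to 3.26 ± 5.16 for Ctsk, with a median of 0.24, against −0.05 over all genes. Ctsd came closest to the threshold, at 0.95 ± 0.46 (unadjusted p = 0.0645, edgeR adjusted p = 0.975), and all 10 members overlapped between the fractions (background without overlap 0.965% higher and 2% lower).

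Within cDC1, edgeR again called 0 members and 0 genes (background 0%), while 3 members had an unadjusted p under 0.05 (12.7% of all genes), namely Ctsl, Ctsd and Ctsk. Ctsl averaged 634 ± 582 CPM in EGFP+ cDC1 and 11.4 ± 0.64 CPM in EGFP- cDC1 (SD, n = 2 each), a ratio of means of 55.6 (log2 fold change 5.80 ± 0.82, edgeR unadjusted p = 0.0002, adjusted p = 0.0793). Ctsd averaged 169 ± 68.5 CPM in EGFP+ cDC1 and 52.4 ± 31.7 CPM in EGFP- cDC1 (1.69 ± 0.57, edgeR adjusted p = 0.304). Ctsk was at least 79.1-fold higher in EGFP+ cDC1 against 3 counts over the group, but all its counts came from EGFP+ replicate 1 (edgeR adjusted p = 0.363). Ctsb, Ctsd and Ctsl were higher in both EGFP+ cDC1 libraries than in both EGFP- cDC1 libraries (3 members, background 11.5%), and Cst3 and Ctse were lower (2 members, background 24%). Ctse here and Ctsk above lend the counts no support, having passed the filter only through libraries in which they were high. Cst3 averaged 16733 ± 6179 CPM in EGFP+ cDC1 and 27632 ± 5857 CPM in EGFP- cDC1 (−0.72 ± 0.38, edgeR adjusted p = 0.422). DESeq2 called 3 members, Ctsl (adjusted p = 2.8e-11), Ctsd and Ctsk, among 1325 genes, the Ctsk call resting on EGFP+ replicate 1 alone, and voom with quality weights called 0 of each. Ctsl was called by edgeR once EGFP+ cDC1 replicate 1 (log2 fold change 4.29, adjusted p = 0.0059) or replicate 2 (6.52, adjusted p = 0.0016) was left out, but EGFP+ cDC1 was then 1 library and the calls over all genes numbered 763 and 1050, against 0 with both, so these calls lend Ctsl no support.

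Within the cDC2 gate edgeR called 0 members and 0 genes (background 0%), with 0 members at an unadjusted p under 0.05 (2.63% of all genes), and DESeq2 called 0 members and 110 genes, voom 0 members and 2 genes. Ctsc averaged 2722 ± 2026 CPM in EGFP+ cDC2 and 5748 ± 1842 CPM in EGFP- cDC2 (SD, n = 2 each), a log2 fold change of −1.08 ± 1.14 (edgeR adjusted p = 1). Ctsl averaged 2237 ± 805 CPM in EGFP+ cDC2 and 1959 ± 771 CPM in EGFP- cDC2, within the spread of the replicates (0.19 ± 0.67). Ctsc, Ctse, Ctsh and Ctsk were lower in both EGFP+ cDC2 libraries than in both EGFP- cDC2 libraries (4 members, background 19.2%), and 0 members were higher in both (background 22.6%). For Ctse this rested on 0 and 6 counts in EGFP+ cDC2 against 6 and 16 in EGFP- cDC2. Ctse and Ctsk lend the count no support, having passed the filter only through libraries in which they were high.

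The test of whether the EGFP difference itself differed between the subsets called 0 of 10 members and 0 genes (background 0%), with Ctsl and Ctsk at an unadjusted p under 0.05 (2 members, 10.4% of all genes). Ctsk passed the filter only through libraries in which it was high and lends this count no support. For Ctsl the difference between the EGFP log2 fold changes of cDC1 and cDC2 was 5.61 ± 1.01 (edgeR unadjusted p = 0.0007, adjusted p = 0.230). DESeq2 called Ctsl alone among the members (adjusted p = 3e-05) and 714 genes in all, and voom called 0 of each. edgeR called Ctsl without EGFP+ cDC1 replicate 1 (4.10, adjusted p = 0.0125) or replicate 2 (6.33, adjusted p = 0.0041), again with EGFP+ cDC1 reduced to 1 library and with 515 and 668 calls over all genes, against 0 with both. RLE scaling moved the median of all genes by 0.14 in this comparison and by 0.11 for cDC1 against cDC2 in EGFP+ cells, and no member changed sign under it in any comparison.

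The EGFP+ cDC1 replicates disagreed in a way that split the set. Replicate 2 held 18.1 times the Ctsc level of replicate 1, 7.82 times its Ctss and 6.09 times its Ctsh. Smaller ratios in the same direction were seen for Ctsz (2.06), Ctsb (1.87), Ctsd (1.80) and Cst3 (1.71). Ctsl went the other way, replicate 1 holding 4.71 times the level of replicate 2, and Ctsk had counts in replicate 1 only. The macrophage and monocyte markers summed to 477 CPM in replicate 1 and 12049 CPM in replicate 2, Lyz2 alone standing at 290 and 8773 CPM. C1qa, a defining macrophage gene, was near the floor in both, at 0.48 and 4.21 CPM. The 6 markers of mature migratory dendritic cells summed to 748 and 6231 CPM, and most of the second sum was Ccr7, at 368 and 5498 CPM. Fscn1 went the other way, at 78.5 CPM in replicate 1 and 21.3 CPM in replicate 2. Higher in replicate 2 were Ccl22 (20.6 and 128 CPM), Cd274 (281 and 569 CPM), Socs2 (0 and 13.1 CPM) and Il4i1 (0 and 0.98 CPM). The 11 fibroblast and stromal markers summed to 811 CPM in replicate 1, with 6 of them at 0 and Sparc at 674 CPM, and to 5.40 CPM in replicate 2, with 7 at 0. The 5 osteoclast markers summed to 0.04 and 38.5 CPM. The part of these cell types in the levels of Ctsc, Ctss, Ctsl or Ctsk was not tested.

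**Figure D3:**
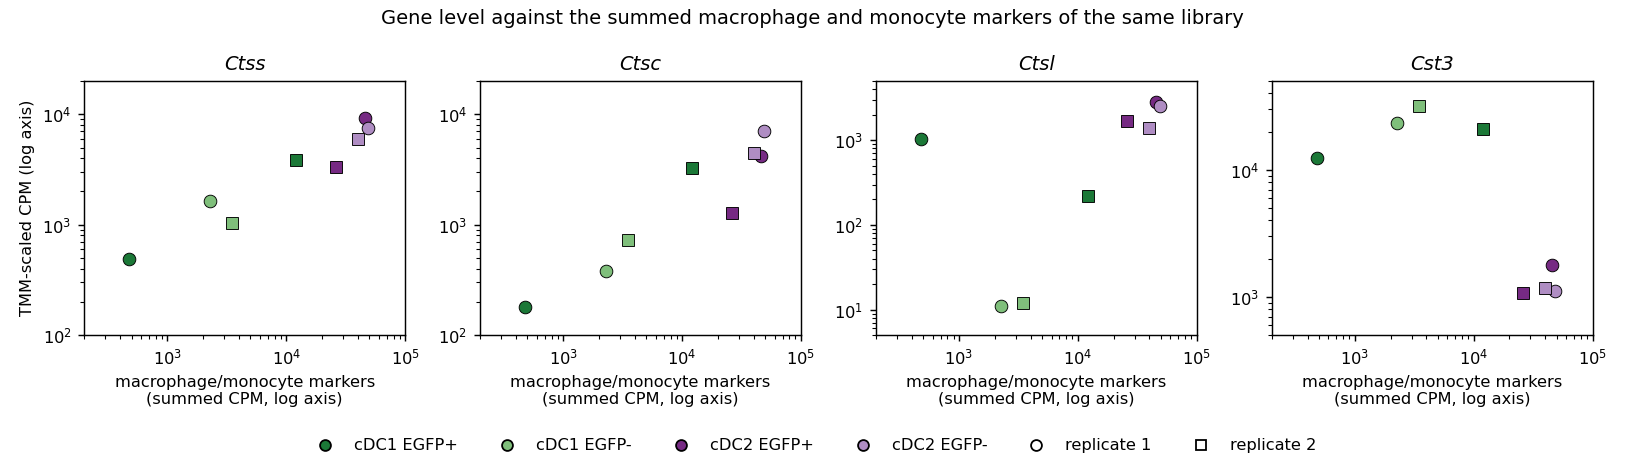
Level of Ctss, Ctsc, Ctsl and Cst3 (vertical, CPM on a log axis) against the sum of 16 macrophage and monocyte markers in the same library (horizontal, CPM on a log axis), 1 point per library. Ctss and Ctsc are lowest in the library with the lowest marker sum (EGFP+ cDC1 replicate 1), where Ctsl stands at 1045 CPM, and Cst3 is at 12364 CPM or more in the 4 cDC1 libraries and at 1776 CPM or less in the 4 cDC2 libraries.

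The balance of inhibitor and enzymes was set out per kilobase of exon, on which genes can be compared. Cst3 ranked first of the 10 genes in all 4 cDC1 libraries, and Ctss ranked first in all 4 cDC2 libraries, with each of 3 choices of gene length. The ratio of Cst3 to the sum of the 7 cysteine cathepsins was 10.1 and 3.86 in EGFP+ cDC1 and 11.2 and 17.8 in EGFP- cDC1. In the cDC2 gate it was 0.146 and 0.220 in EGFP+ cells and 0.0986 and 0.136 in EGFP- cells. Inhibitor transcripts thus outnumbered those of the enzymes in each cDC1 library and were outnumbered in each cDC2 library, as a description of transcripts and with no test. With the principal transcript as length the ratios were 4.57 to 21.8 in cDC1 libraries and 0.108 to 0.253 in cDC2 libraries. Part of this contrast is the Cst3 difference tested above.

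**Figure D4:**
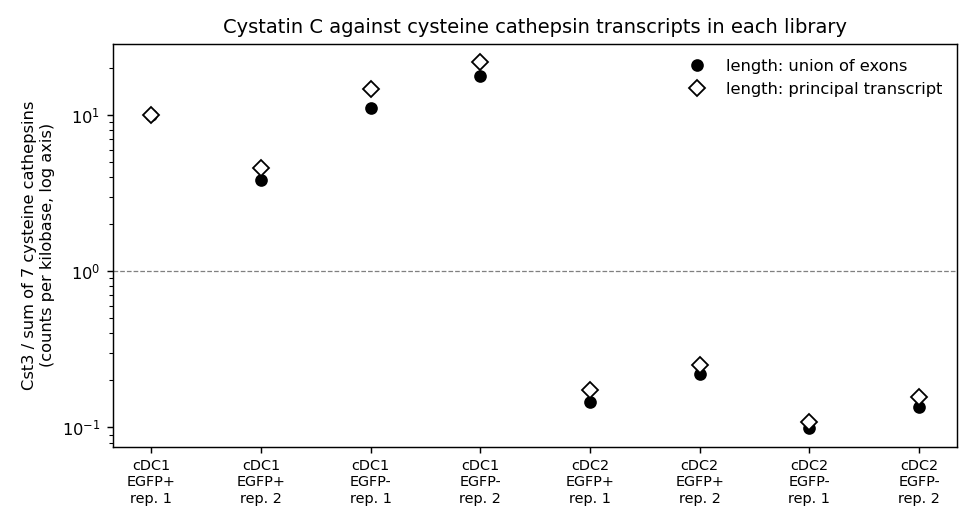
Ratio of Cst3 to the summed 7 cysteine cathepsins, in counts per kilobase on a log axis, for each of the 8 libraries, with filled circles for merged exons and open diamonds for the principal transcript. With merged exons the 4 cDC1 libraries lie between 3.86 and 17.8 and the 4 cDC2 libraries between 0.0986 and 0.220, on either side of 1.

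Ctss made up most of the cathepsin transcripts per kilobase of merged exons in 7 of the 8 libraries. Its share of the 9 cathepsins was 35.4% and 64.1% in EGFP+ cDC1, 70.6% and 53.3% in EGFP- cDC1, 65.9% and 58.1% in EGFP+ cDC2 and 58.5% and 60.3% in EGFP- cDC2. The exception, EGFP+ cDC1 replicate 1, was the library with the largest shares of Ctsz and Ctsl. Ctsz held 31.7% and 15.1% in EGFP+ cDC1, 17.0% and 28.6% in EGFP- cDC1, 9.38% and 12.8% in EGFP+ cDC2 and 10.8% and 12.4% in EGFP- cDC2. Ctsl held 15.8% and 0.78% in EGFP+ cDC1, 0.10% and 0.13% in EGFP- cDC1, 4.16% and 6.10% in EGFP+ cDC2 and 4.07% and 2.99% in EGFP- cDC2. These Ctsl shares rest on 6489 bases of merged exons that include a long isoform. With the principal transcript of 1971 bases, an alternative chosen after the data were seen, its shares were 35.7% and 2.06% in EGFP+ cDC1, 0.29% and 0.35% in EGFP- cDC1, 11.1% and 15.9% in EGFP+ cDC2 and 10.1% and 7.79% in EGFP- cDC2. Ctss then held 24.4% in EGFP+ cDC1 replicate 1, below Ctsl, and 44.2% to 63.1% in the other 7 libraries, where it remained the largest. The widest 95% Wilson interval of a share of raw counts reached 0.38 percentage points to either side, covering counting error only.

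**Figure D5:**
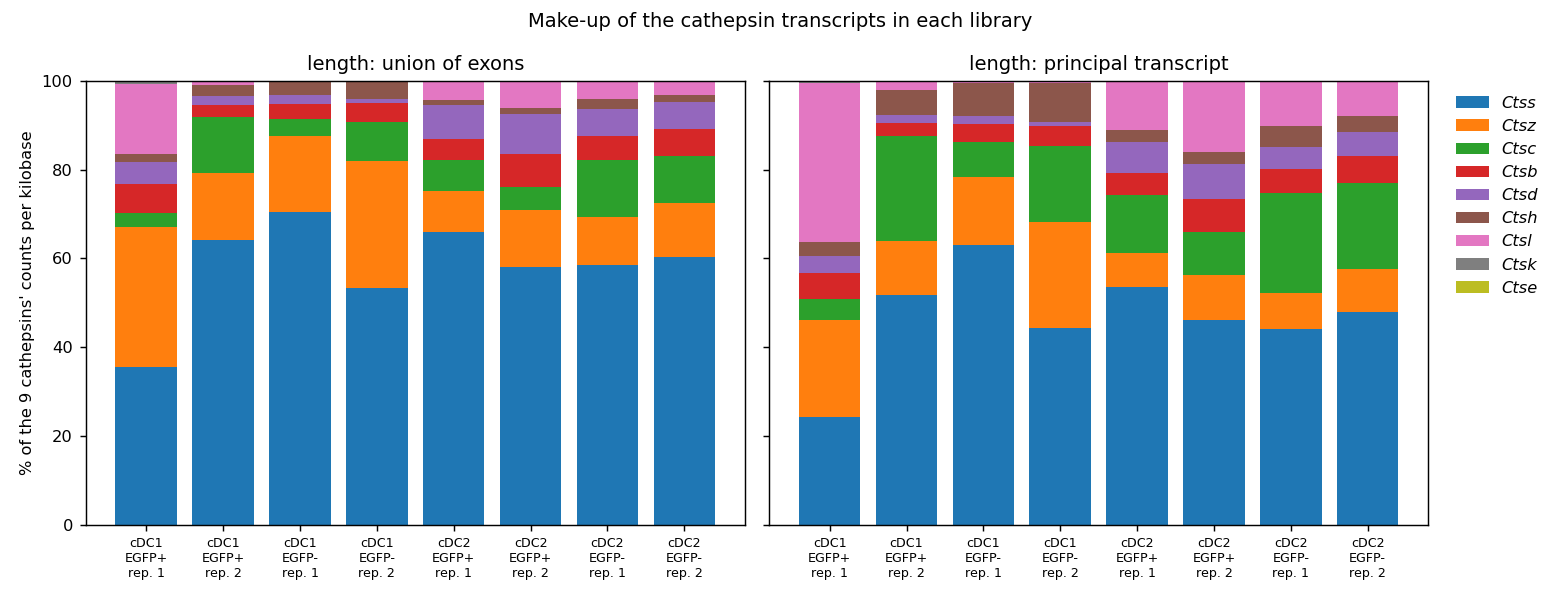
Make-up of the 9 cathepsins in each library, as percent of their summed counts per kilobase (vertical axis), with 1 stacked bar per library, for merged exons on the left and the principal transcript on the right. On the left Ctss is the largest part throughout, and Ctsl is visible in EGFP+ cDC1 replicate 1 (15.8%) and in the cDC2 libraries but not in EGFP- cDC1 (0.10% and 0.13%).

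Neighbouring steps of the pathway were read from lists, with cDC1 set against cDC2 over both fractions. Of the other cathepsins 3 of 14 could be tested (Ctsa, Ctsf and Ctso) and 0 passed by edgeR. Of the other cystatin-family inhibitors 3 of 20 could be tested and 1 passed, in the opposite direction to Cst3: Cstb, the cytosolic inhibitor cystatin B, was lower in cDC1, at 105 and 320 CPM in EGFP+ cDC1 and 134 and 110 CPM in EGFP- cDC1, against 879 and 580 CPM in EGFP+ cDC2 and 502 and 522 CPM in EGFP- cDC2 (log2 fold change −1.92 ± 0.36, edgeR adjusted p = 0.0381). All cDC1 libraries were below all cDC2 libraries for Cstb.

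Of 9 other lysosomal processing genes 1 passed, Napsa, the aspartic protease napsin A, which was higher in cDC1 (log2 fold change 3.06 ± 0.53, edgeR adjusted p = 0.0269). Napsa stood at 275 and 1107 CPM in EGFP+ cDC1 and 631 and 978 CPM in EGFP- cDC1, against 105 and 32.6 CPM in EGFP+ cDC2 and 98.1 and 135 CPM in EGFP- cDC2. Napsa thus went the opposite way to Ctsd, the other abundant aspartic protease here. Lgmn, the asparaginyl endopeptidase that makes the early invariant chain cuts, stood at 87.8 and 796 CPM in EGFP+ cDC1 and 81.8 and 111 CPM in EGFP- cDC1, against 2032 and 806 CPM in EGFP+ cDC2 and 2242 and 2210 CPM in EGFP- cDC2. Its groups did not overlap, but it did not pass (−3.11 ± 0.90, edgeR adjusted p = 0.194).

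Of 11 listed class II genes 9 were tested; 5 passed, all higher in cDC1 (0.816% of all genes), and 4 did not. Those that passed included the chains H2-Aa (1.57 ± 0.29, edgeR adjusted p = 0.0339), H2-Ab1 (1.49 ± 0.28, 0.0381) and H2-Eb1 (1.70 ± 0.32, 0.0389). The others were H2-DMb2 (3.77 ± 0.53, edgeR adjusted p = 0.0111) and H2-Oa (4.88 ± 0.42, 0.0011). The median log2 fold change of the 9 was 1.57, and within each EGFP fraction 1 of the 9 passed, H2-Oa (0.114% of all genes higher in either fraction). Of 21 lysosomal sorting, membrane and biogenesis genes 1 passed, the membrane glycoprotein gene Lamp1, which was lower in cDC1 (−2.25 ± 0.42, edgeR adjusted p = 0.0381), and the median of the 21 was −1.08, against −0.28 over all genes. Tfeb, which encodes a regulator of lysosomal genes, averaged 0.46 ± 0.34 CPM in cDC1 and 7.02 ± 3.89 CPM in cDC2 (SD, n = 4 each) without passing (−4.09 ± 1.80, edgeR adjusted p = 0.359). In the EGFP comparisons 0 genes of these lists passed by edgeR.

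The genes most like each member over the 8 libraries were found by the root mean square difference of centred log2(CPM + 1), among 6068 genes of at least 10 CPM. For Cst3 they were Wdfy4 (0.40), Cd24a (0.48) and Traf4 (0.51), and Wdfy4 and Cd24a belong to the cDC1 marker list. For Ctss they included Fcer1g (0.27) and Bst1 (0.30). For Ctsd they were Hilpda (0.33), Mmp14 (0.36) and Apoc2 (0.56), and for Ctsb Smpdl3a (0.34), Ccdc71l (0.34) and Itpripl2 (0.35). For Ctsz the list held Lamp2 (0.24), a lysosomal membrane gene, between Mir22hg (0.22) and Gbp3 (0.26). For Ctsc it was Rapgef2 (0.37), Tlr4 (0.38) and AA467197 (0.43), and for Ctsh Casp1 (0.30), Tmem106a (0.35) and Cndp2 (0.35). Ctsl had no close companion, the nearest being Cd151 (0.98), Tmem37 (1.0) and Timp2 (1.09). No member was among the 3 nearest genes of another, but Ctsk and Ctse, both at low levels, could not be. Their mean levels were below the 10 CPM asked of a candidate. Among 6069 candidates, the gene nearest to Ctsk was Nfkbiz (0.50) and that nearest to Ctse was Sub1 (0.37).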

How the data were processed

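Per the labels' protocols, RNA of sorted cells was reverse transcribed by a published method and made into libraries with KAPA Hyper Prep. The submitters' processing notes name Trimmomatic 0.39, STAR 2.7.5c, Cufflinks 2.2.1 and the mm10 build; the sources used here do not give the counter, annotation or strand setting. Raw, unnormalized counts were deposited for 24369 gene symbols in 8 columns, each matched to its sample by the name in its title.

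Tests ran in edgeR 4.0.16 under R 4.3.3 (filterByExpr by group, TMM, robust glmQLFit, glmQLFTest). A 4-group model gave the comparisons within a fraction or subset and the interaction, and an additive model of subset and EGFP gave those over 4 libraries a side. edgeR's common dispersion came to 1.28 (coefficient of variation 1.13). Standard errors were derived from each fold change and its F statistic. The code was tested on simulated counts. Alternatives were DESeq2 1.42.0, limma 3.58.1 voom with quality weights, RLE scaling, other filters (none, or 10 CPM in 2 libraries), no robust estimation, the compared libraries alone, Rn45s removed, the replicate number as a block and each library left out. Gene lengths were merged exons of GENCODE M21. Genes were named by rule: all 10 members, list genes past the threshold or of smallest p at 5 CPM or more, and the 3 genes most like each member, of which 1 is not reported here. Lyz2, C1qa, Sparc and Ccr7 were named after their values were seen. The members, gene lists and tests were chosen with earlier results of these data known.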

Additional observations from a re-analysis of the deposited data

How the results depend on the processing

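With 2 libraries a group and a biological coefficient of variation of 1.13, modest differences were not detectable, and Ctse and Ctsk were under 10 counts in 4 and 3 libraries. Of 1170 member results under alternatives, 1098 kept their side of the threshold, 30 lost their call, 42 gained one and 0 called results reversed. Among the 1098, 42 that were called in neither fit differed in sign. For cDC1 against cDC2 over both fractions the calls numbered 3, against 5 with DESeq2 and 8 with voom, and 3 to 6 when 1 library was left out. Among EGFP- cells they numbered 4, against 7 with DESeq2, 7 with voom, 2 without robust estimation and 0 to 6 when 1 library was left out. Among EGFP+ cells they numbered 1, against 3 with DESeq2, 3 without a low-count filter, 0 without robust estimation, 0 with the compared libraries alone and 0 to 5 when 1 library was left out. For EGFP in cDC1 they numbered 0, against 3 with DESeq2, 1 without a low-count filter (Ctsl, adjusted p = 0.0433) and 0 to 2 when 1 library was left out. For the interaction they numbered 0, against 1 with DESeq2 and 0 to 1 when 1 library was left out. The count for EGFP over both subsets and in cDC2 was 0 under all 17 alternatives. The cause was not tested for any of these. Over all genes the calls for cDC1 against cDC2 over both fractions numbered 150 with edgeR, 1160 with DESeq2 and 846 with voom. Those among EGFP- cells numbered 41, against 838 with DESeq2, 471 with voom and 25 without robust estimation. In EGFP+ cells all genes gave 26 calls, against 1586 with DESeq2 and 153 without a low-count filter. They gave 12 without robust estimation and 0 with the compared libraries alone. EGFP in cDC1 gave 0 calls over all genes, against 1325 with DESeq2 and 57 without a low-count filter.

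Same-numbered libraries of different groups did not deviate together (Pearson correlation of deviations from −0.224 to 0.041 over the 6 pairs of groups, across 11394 genes). With 2 libraries a group, this cannot show that the samples were unpaired. The titles carry a code that runs with the replicate number. Its meaning is not given in the labels, and the numbers were not taken to pair the samples. With the replicate block, 0 members were called among EGFP- cells and 0 among EGFP+ cells, against 4 and 1 without it. Over all 11394 genes the block left 3 calls among EGFP- cells and 0 among EGFP+ cells, against 41 and 26. The loss was thus not particular to the members.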
